A study of Mus musculus with 10 samples.

Results

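The endoplasmic reticulum (ER) folds the proteins that a cell secretes or places in its membranes, and 35 genes for its chaperones, oxidases, degradation machinery and stress sensors were followed in muscle stem cells of C57BL/6 mice. The members were given as a list of gene symbols, drawn up with earlier results of these data known, and all 35 were found by symbol among the 12803 genes of the deposited table. They comprise 11 chaperones and cochaperones of the HSP70 and HSP90 systems, 2 lectin chaperones, 7 disulfide isomerases and oxidases, 10 genes of ER-associated degradation, 3 stress sensors or transcription factors and 2 genes of the translocon. The cells came from limb muscles of young male C57BL/6 mice with no engineered allele, and were sorted for VCAM and against CD45, CD31 and Sca1, each library from 1 animal. The fresh group (n = 3) was frozen right after sorting at 0 h. The vehicle group (n = 3) was cultured for 24 h with the solvent DMSO. The Tubastatin A group (n = 4) was cultured for 24 h with Tubastatin A at 40 µM, dissolved in DMSO; this compound inhibits the cytoplasmic deacetylase HDAC6. Both cultured groups grew in Ham's F-10 medium with 10% horse serum on plates coated with extracellular matrix, so the difference between vehicle and fresh holds culture, time and solvent together, and these cannot be told apart.

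When unfolded proteins build up in the ER, 3 sensors respond: IRE1 (gene Ern1) splices the mRNA of Xbp1, ATF6 is cleaved to release a transcription factor, and PERK slows translation. Together these arms, called the unfolded protein response, raise the genes for ER chaperones and for ER-associated degradation, in which misfolded proteins are drawn back into the cytosol and destroyed. In muscle stem cells, which are quiescent in resting muscle, translation is known to be held low by phosphorylation of eIF2α, the step that PERK catalyses. The table holds 1 value per gene and library, so the spliced and unspliced forms of Xbp1 mRNA cannot be told apart, and neither cleavage of ATF6 nor phosphorylation is measured.

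Levels are given as RPKM (reads per kilobase of exon, relative to a scaled library size) as mean ± SD over the libraries of a group. Changes are differences of log2(RPKM + 1) from 1 limma fit to all 12803 genes and 10 libraries, with standard error (SE), and p-values are adjusted over all genes by Benjamini-Hochberg. "Rose" and "fell" are used for an adjusted p under 0.05. In bulk RNA, fewer cells of a type and less RNA per cell cannot be told apart.

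The libraries held between 37.5M and 55.3M recovered reads. All 10 markers of muscle stem cells were in the table, with summed levels of 2261 to 3250 RPKM in fresh, 1561 to 1787 in vehicle and 786 to 865 in Tubastatin A libraries. Sdc4 and Myod1 weigh most in this sum, with means of 1143 and 757 RPKM in fresh and 169 and 1186 in vehicle. Pax7 went from 22.4 to 4.73 and Calcr from 81.2 to 1.17. From fresh to vehicle 8 of the 10 were lower and 0 higher. Of 55 markers of other cell types, 46 were in the table, and Ptprc, which encodes the CD45 of the sort gate, was among the 9 with no row. The other 2 genes of the negative gate were present in fresh libraries, Ly6a (Sca1) at 4.56 to 16.2 RPKM and Pecam1 (CD31) at 4.19 to 6.96, and stood at 0.174 to 0.407 and 0.181 to 0.448 in vehicle libraries. The summed level of the 46 was 2333 to 2820 RPKM in fresh, 428 to 504 in vehicle and 147 to 566 in Tubastatin A libraries, with 39 of 46 lower in vehicle than in fresh. This sum rests on few genes and does not measure a share of other cells. The highest means in fresh were Gsn (1362 RPKM), Col3a1 (407), Acta2 (212) and Dpt (145), while Pdgfra was at 0.117 and Cdh5 at 1.73. Acta2 was at 212 in vehicle too. Between Tubastatin A and vehicle 7 of the 46 were higher and 6 lower, and Tubastatin A replicate 2 alone had a raised sum of myofibre markers, 342 RPKM against 4.88 to 5.72 in the other Tubastatin A libraries. A list of 15 dissociation and heat shock genes summed to 64500 RPKM in fresh replicate 1 and to 35800 and 31590 in fresh replicates 2 and 3, against 1612 to 1708 in vehicle and 2829 to 3601 in Tubastatin A libraries, and all 15 were lower in vehicle than in fresh. With Tubastatin A 10 of these 15 were higher than with vehicle and 1 lower, led by Hspa1b with 23.9 times the vehicle mean, and of the 10 muscle stem cell markers 8 were lower and 1 higher. The stem cell list and the dissociation list thus moved in each comparison. Of the markers of other cell types, 33 of 46 were not called between Tubastatin A and vehicle, and 39 were lower than fresh in each cultured group. The shares of all genes called, to be read beside these counts, are given below for each comparison. The part of these lists in the results below was not tested.

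Fresh replicate 1 and Tubastatin A replicate 3 stood apart for the members. Fresh replicate 1 was the lowest of the 3 fresh libraries for 26 of 35 members, and its members lay a median of 0.492 log2 units below the mean of the other 2, where all genes, split by exon length into 4 bins, lay at medians between -0.23 (shortest) and 0.0737 (longest). Tubastatin A replicate 3 was the lowest of its 4 libraries for 29 of 35 members, at a median of -0.316 log2 units from the other 3, against medians between -0.0895 and -0.00968 for the 4 bins of all genes. Fresh replicate 2 had the stronger trend with exon length, from 0.438 log2 units above the other 2 fresh libraries for the shortest bin to -0.266 for the longest, with the members at a median of 0.105. Without fresh replicate 2, 22 members fell and 6 rose from fresh to vehicle. Counts of members without the other 2 libraries are given beside each comparison.

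From fresh cells to vehicle culture, 22 of the 35 members fell, 5 rose and 8 were not called, against a background of 35% of all genes called lower and 32.0% called higher. The members' median change was -0.89 log2 units, beside -0.03 for all genes. Without fresh replicate 1, 23 fell and 4 rose. Without both this library and Tubastatin A replicate 3, 24 fell and 5 rose.

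With Tubastatin A in the culture, many of them were higher than with vehicle. Of the 35, 18 rose and 3 fell, against 29.6% of all genes higher and 29.7% lower, and the median change was 0.59 log2 units, beside 0.02 for all genes. Leaving out Tubastatin A replicate 3, or any 1 vehicle library, left 1 member lower and 17 to 19 higher. Leaving out fresh replicate 1, with or without Tubastatin A replicate 3, left 21 higher and 3 lower.

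Against fresh cells, the Tubastatin A group had 15 members lower and 6 higher, with a background of 35.2% lower and 29.8% higher and a median of -0.39 log2 units beside -0.03 for all genes. Without fresh replicate 1, 19 were lower and 6 higher, without Tubastatin A replicate 3, 13 and 7, and without both, 17 and 7. The 3 comparisons share libraries, so they are not independent of each other. By group means, 17 members ran from fresh over Tubastatin A down to vehicle, 8 were highest with Tubastatin A and lowest with vehicle, and 10 followed 4 other orders.

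The comparisons against fresh depend on how libraries are scaled. The recovered reads of a library were 1.39 to 1.41 times its scaled size in fresh and 0.829 to 0.928 times in cultured libraries. Scaled by the reads in the table alone, vehicle against fresh shifts up by 0.609 log2 units and Tubastatin A against fresh by 0.689, while Tubastatin A against vehicle shifts by 0.0806. On that scale 14 members were lower and 9 higher in vehicle than in fresh, where 22.7% of all genes were lower and 49.7% higher. Between Tubastatin A and fresh 7 were lower and 15 higher, where 20.2% of all genes were lower and 54.0% higher. The median of the members turned from -0.39 to 0.27 log2 units in this last comparison, beside 0.404 for all genes. Tubastatin A against vehicle gave 20 higher and 2 lower, and all 18 members that rose on the authors' scale rose on this scale too.

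**Figure D1:**
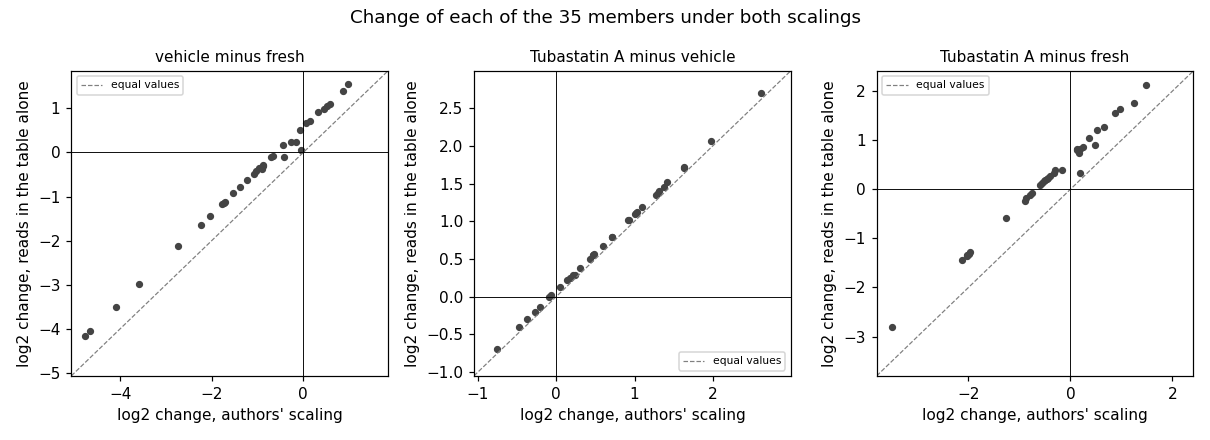
Each point is 1 of the 35 members, with its log2 change on the authors' scaling (x axis) and when scaled by the reads in the table alone (y axis), in a panel for each comparison. The dashed line marks equal values: the points lie above it by up to the shifts of 0.609 and 0.689 log2 units in the comparisons against fresh, and close to it in Tubastatin A against vehicle.

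Hspa5, which encodes BiP, the HSP70 chaperone of the ER lumen and the protein that holds the stress sensors inactive, had the highest level of all members in every library. It lies at chr2:34771970-34777547 on the + strand of mm10 (GENCODE M21, outermost ends of its transcripts). The 3 fresh libraries had 6624, 8729 and 8506 RPKM, the 3 vehicle libraries 323, 344 and 275, and the 4 Tubastatin A libraries 2454, 2034, 1297 and 2104. The 3 groups did not overlap, and Tubastatin A replicate 3 was the lowest of its group. Mean levels were 7953 ± 1156 (SD, n = 3), 314 ± 35.5 (n = 3) and 1972 ± 486 (n = 4). Hspa5 fell by 4.65 log2 units from fresh to vehicle (SE 0.28, adjusted p = 4e-08), so that the fresh mean was 25.3 times the vehicle mean. It rose by 2.62 log2 units with Tubastatin A over vehicle (SE 0.26, adjusted p = 4.9e-06), a mean 6.28 times as high. The fresh mean was 4.03 times the Tubastatin A mean (log2 change -2.04, SE 0.26, adjusted p = 2.8e-05).

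The weight of this single gene in the libraries was large. Hspa5 took 2.01, 2.62 and 2.56% of the reads in the fresh libraries, 0.150, 0.157 and 0.126% in vehicle, and 1.17, 0.976, 0.662 and 1.001% with Tubastatin A. By level it ranked 5th, 2nd and 2nd of all genes in the fresh libraries, 74th, 83rd and 126th in vehicle, and 4th or 5th in every Tubastatin A library. These read shares need no scaled library size, and on them too the 3 groups do not overlap. The other 34 members together took 0.917 to 1.40% of the reads in fresh, 0.588 to 0.618% in vehicle and 0.875 to 1.09% in Tubastatin A libraries, so fresh and Tubastatin A libraries overlapped for them and vehicle libraries lay below both.

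**Figure D2:**
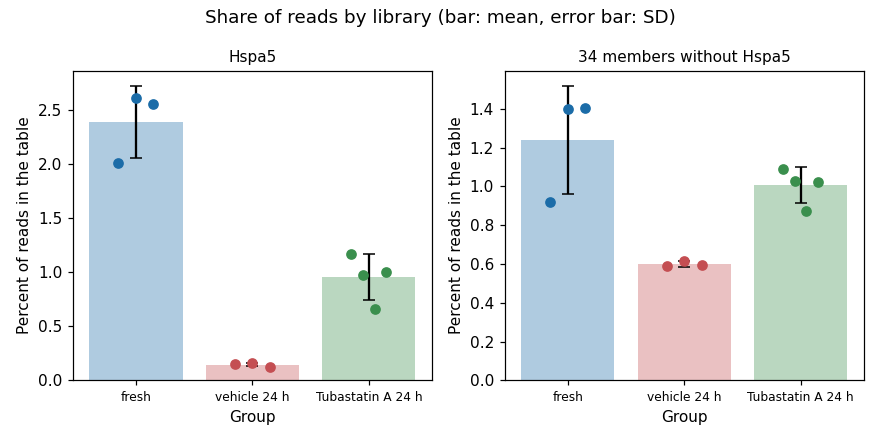
Percent of the reads in the table taken by Hspa5 (left) and by the other 34 members together (right). Points are libraries, bars the mean and error bars the SD of fresh (n = 3), vehicle (n = 3) and Tubastatin A (n = 4). For Hspa5 the groups are apart at 2.01 to 2.62, 0.126 to 0.157 and 0.662 to 1.17%; for the other members vehicle is lowest and the other groups overlap.

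The promoters of several members hold the ER stress response element, to which ATF6 and NF-Y bind: the letters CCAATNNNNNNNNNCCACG on either strand. RefSeq promoter windows (GRCm38.p6, 250 bases before to 50 after the start) were found for 31 of the 35 members, 29 by symbol and 2 by another symbol of the gene. Hyou1, Manf, Derl1 and Atf6 had none. The element was present in 39 of 32851 windows of all genes (0.119%) and in 10 of the 33 windows of members, which belong to 10 of the 31 members (32.3%). The members were listed as genes of the ER and its stress response, so this contrast is no independent finding and was not tested. Its second form, ATTGGNCCACG, was in 12 windows of all genes (0.0365%) and in those of 2 members. The 2 motifs did not fall in the same member. The copies are shown so that the members with the largest changes can be set beside those with the same letters and no call. Capitals mark the fixed bases, each is read 5′ to 3′ on the strand given, and coordinates are those of mm10.
Hspa5 chr2:34772025-34772043 (+): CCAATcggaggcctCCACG
Hsp90b1 chr10:86705533-86705551 (+): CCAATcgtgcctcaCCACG
Hsp90b1 chr10:86705638-86705656 (-): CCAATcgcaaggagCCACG
Dnajc3 chr14:118937827-118937845 (+): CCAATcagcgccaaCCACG
Creld2 chr15:88819520-88819538 (-): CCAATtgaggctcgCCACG
Calr chr8:84847075-84847093 (+): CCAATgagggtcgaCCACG
Canx chr11:50325800-50325818 (-): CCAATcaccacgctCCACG
Pdia6 chr12:17266491-17266509 (+): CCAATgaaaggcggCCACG
Ero1lb chr13:12565682-12565700 (-): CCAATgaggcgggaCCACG
Syvn1 chr19:6046532-6046550 (+): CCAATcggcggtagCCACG
Derl3 chr10:75893242-75893260 (-): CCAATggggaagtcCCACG
Dnajb11 chr16:22857852-22857862 (+): ATTGGcCCACG
Herpud1 chr8:94386377-94386387 (+): ATTGGgCCACG

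These copies lay between 25 bases (Syvn1) and 193 bases (the farther copy of Hsp90b1) before the start, and that of Dnajb11 lay after it. Hsp90b1 was the only member with 2 copies. The 250 bases before the RefSeq start of Hspa5, chr2:34771840-34772089 on the + strand, are shown with the element in capitals, 46 bases before the start.
Hspa5: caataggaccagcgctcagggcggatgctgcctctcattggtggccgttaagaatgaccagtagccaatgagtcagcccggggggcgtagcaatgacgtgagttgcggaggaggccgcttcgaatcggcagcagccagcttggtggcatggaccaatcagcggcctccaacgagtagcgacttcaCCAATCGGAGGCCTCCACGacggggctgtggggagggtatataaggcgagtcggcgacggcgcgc

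The same stretch of Herpud1, chr8:94386179-94386428 on the + strand, holds the second form in capitals, 41 bases before the start.
Herpud1: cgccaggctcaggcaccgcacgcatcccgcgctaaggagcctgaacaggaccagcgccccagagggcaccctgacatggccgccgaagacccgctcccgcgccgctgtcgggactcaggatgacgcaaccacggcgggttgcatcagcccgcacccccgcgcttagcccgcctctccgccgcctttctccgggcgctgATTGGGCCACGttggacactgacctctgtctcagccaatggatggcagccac

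The 12 members with either form did not all change. From fresh to vehicle 9 fell and 3 were not called (median -1.21 log2 units), and of the 19 members with a window but neither form, 10 fell, 5 rose and 4 were not called (median -0.65). With Tubastatin A over vehicle 7 of the 12 rose and 5 were not called (median 0.65), and of the 19, 9 rose, 3 fell and 7 were not called (median 0.48). These counts are to be read beside the background shares of all genes called, given above for each comparison. Whether the 12 and the 19 differ from each other was not tested. Herpud1, with the second form, and Hspa5, with the first, had the largest falls of all 35 members. The next largest falls, of Dnajb9 (-4.10 log2 units) and Xbp1 (-3.60), were in genes with a window but neither form. With Tubastatin A over vehicle Hspa5 had the largest rise (2.62). It was followed by Dnajb9 (1.98), Sel1l (1.63) and Xbp1 (1.63), whose windows hold neither form. Canx, Creld2 and Derl3 carry the first form and were not called in any comparison on the authors' scale. The letters TGACGTGG of the unfolded protein response element, bound by XBP1 and ATF6, were in 222 windows of all genes (0.676%), and TGATGNAAT of the C/EBP-ATF element, bound by ATF4 with CHOP, in 317 (0.965%); no member's window had either. A match of letters is a description, and its absence says only that these letters are not in the window.

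Hsp90b1 encodes GRP94, the HSP90 of the ER. Its levels were 441, 457 and 630.0 RPKM in fresh, 105, 112 and 99.7 in vehicle, and 319, 288, 222 and 278 in Tubastatin A libraries. As for Hspa5, all fresh libraries lay above all Tubastatin A libraries and these above all vehicle libraries. It fell by 2.24 log2 units from fresh to vehicle (SE 0.18, adjusted p = 4.7e-07) and rose by 1.37 with Tubastatin A (SE 0.17, adjusted p = 2.7e-05). Tubastatin A cells were lower than fresh by 0.87 log2 units (adjusted p = 0.0007), but not when scaled by reads alone (-0.18, adjusted p = 0.3).

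Among the J-domain cochaperones, which hand clients to BiP and stimulate its ATPase, Dnajb9 moved most. Dnajb9 (ERdj4, which returns BiP to IRE1) had 85.9, 185 and 173 RPKM in fresh, 7.54, 7.58 and 6.65 in vehicle, and 35.5, 33.3, 22.9 and 36.2 in Tubastatin A libraries. Again no library of one group reached into another. The fresh mean was 20.4 times the vehicle mean (log2 change -4.10, SE 0.26, adjusted p = 6.4e-08), and the Tubastatin A mean 4.40 times the vehicle mean (1.98, SE 0.24, adjusted p = 2.6e-05). Tubastatin A cells remained lower than fresh, with a log2 change of -2.12 (adjusted p = 1.1e-05).

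Dnajc3 encodes P58IPK, a cochaperone that also inhibits PERK. It had 122, 208 and 234 RPKM in fresh, 29.6, 26.6 and 23.6 in vehicle, and 47.5, 49.1, 34.8 and 45.5 in Tubastatin A libraries. The groups were apart, yet Tubastatin A stood near vehicle: the fall to vehicle was 2.73 log2 units (SE 0.22, adjusted p = 4.7e-07) and the rise with Tubastatin A 0.71 (SE 0.21, adjusted p = 0.011). Compared with fresh, the Tubastatin A group was at -2.02 log2 units (adjusted p = 4.2e-06).

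The other cochaperones were less uniform. Dnajb11 (ERdj3), at 101 RPKM on average in fresh, 49.1 in vehicle and 68.7 in Tubastatin A libraries, fell from fresh to vehicle (log2 change -0.96, adjusted p = 0.0022), though not when scaled by reads alone (-0.36, adjusted p = 0.14). Its difference of 0.47 between Tubastatin A and vehicle had an adjusted p of 0.07, although the 4 Tubastatin A libraries (56.5 to 74.3 RPKM) lay above the 3 vehicle libraries (45.6 to 52.9). Dnajc10 (ERdj5, a reductase that opens disulfides of proteins bound for degradation) went the other way. Its means of 24.7 RPKM in vehicle and 17.6 with Tubastatin A gave a fall by 0.47 log2 units (adjusted p = 0.025), which lost its call without Tubastatin A replicate 3 (adjusted p = 0.071) or without any 1 vehicle library (0.059 to 0.065).

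Manf and Creld2 were not called between Tubastatin A and vehicle. Manf, a secreted factor that steadies BiP's grip on its clients, had 75.8, 220.1 and 153 RPKM in fresh, 27.8, 35.05 and 35.8 in vehicle, and 33.5, 35.2, 31.1 and 35.2 in Tubastatin A libraries. All fresh libraries were above all cultured ones, and the cultured groups overlapped. It fell by 2.03 log2 units to vehicle (SE 0.29, adjusted p = 5.7e-05), and the difference between Tubastatin A and vehicle was 0.04, with a 95% interval from -0.55 to 0.63 (adjusted p = 0.91). Creld2, an ER protein that can be secreted, had means of 121, 81.0 and 89.3 RPKM and was not called in any comparison. The low value of 57.9 RPKM in fresh replicate 1, against 172 and 132 in the other fresh libraries, is the lowest fresh value by far, and without that library it fell from fresh to vehicle (log2 change -0.89, adjusted p = 0.00038).

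Sdf2 and Sdf2l1, related subunits of a complex with ERdj3, differed. Sdf2 had 27.8, 58.6 and 32.8 RPKM in fresh, 16.9, 21.01 and 22.3 in vehicle and 43.6, 38.1, 39.2 and 44.2 in Tubastatin A libraries. Vehicle libraries were the lowest throughout, with a fall by 0.89 log2 units from fresh (adjusted p = 0.0038, but 0.23 when scaled by reads alone) and a rise by 1.01 with Tubastatin A (SE 0.21, adjusted p = 0.0013). Sdf2l1, at means of 57.3, 65.6 and 76.3 RPKM, was not called, and the 3 groups overlapped. When scaled by reads alone it was higher in vehicle (0.91, adjusted p = 0.012) and in Tubastatin A (1.20, adjusted p = 0.0014) than in fresh cells. Hyou1, an HSP70-like exchange factor for BiP (GRP170), stood at only 5.95, 4.75 and 6.62 RPKM and was not called either. Its difference of 0.43 log2 units between Tubastatin A and vehicle had a 95% interval from -0.01 to 0.87 (adjusted p = 0.087). When scaled by reads alone Hyou1 was higher with Tubastatin A than with vehicle (0.51, adjusted p = 0.045) and than in fresh cells (0.75, adjusted p = 0.0051).

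In all, of the 11 genes of the HSP70 and HSP90 systems 7 fell and 0 rose from fresh to vehicle, and 5 rose and 1 fell with Tubastatin A over vehicle. The background shares of all genes called are those given above for each comparison. On the authors' scale none of the 11 was higher in Tubastatin A than in fresh cells, and 5 were lower. When scaled by reads alone Hyou1, Sdf2l1 and Sdf2 were higher than in fresh cells (0.75, 1.20 and 0.79, adjusted p = 0.0051, 0.0014 and 0.0035). Hsp90b1 was then no longer called lower.

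**Figure D3:**
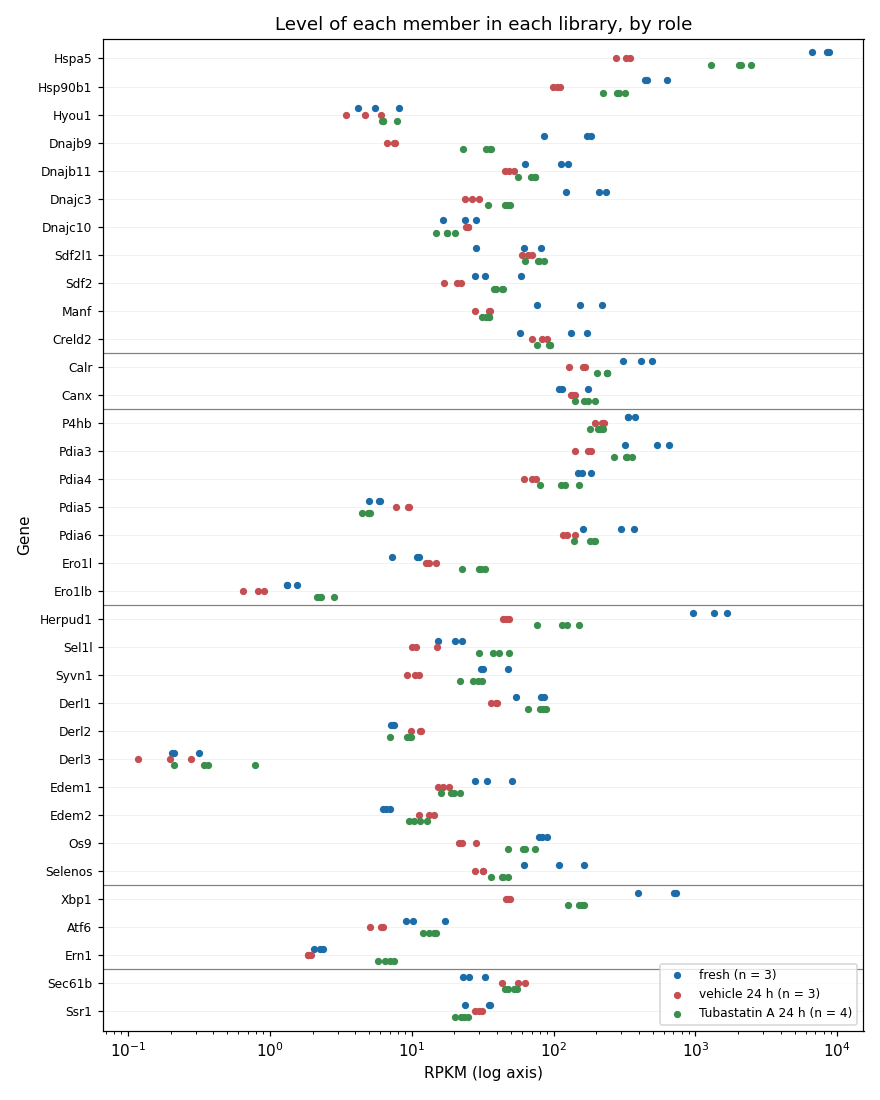
Level of each of the 35 members in each library, in RPKM on a log axis, with the members in rows grouped by role (horizontal lines) and 1 point per library, coloured by group. Fresh libraries lie far to the right of vehicle libraries for Hspa5, Dnajb9, Herpud1 and Xbp1, with Tubastatin A libraries between them, while for Ern1 the Tubastatin A libraries lie to the right of both other groups.

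The lectin chaperones calreticulin and calnexin bind glycoproteins with a single remaining glucose. Calr, the soluble one, had 306, 416 and 494 RPKM in fresh, 129, 167 and 162 in vehicle, and 239.7, 239, 202 and 238 in Tubastatin A libraries. On the authors' scale the groups were apart, with a fall by 1.39 log2 units to vehicle (SE 0.19, adjusted p = 3.8e-05) and a rise by 0.59 with Tubastatin A (SE 0.18, adjusted p = 0.012, and 0.063 without vehicle replicate 1). Tubastatin A cells were lower than fresh by 0.79 log2 units (adjusted p = 0.0018), but not when scaled by reads alone (-0.11, adjusted p = 0.57). Canx, the one in the membrane, was at 133 ± 36.1, 136 ± 4.71 and 169 ± 22.3 RPKM and was not called. Its change from fresh to vehicle was 0.06 log2 units, with a 95% interval from -0.34 to 0.46. When scaled by reads alone Canx was higher in vehicle (0.67, adjusted p = 0.0043) and in Tubastatin A (1.05, adjusted p = 9.9e-05) than in fresh cells.

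The disulfide isomerases form and rearrange the disulfide bonds of folding proteins. Pdia3 (ERp57), the partner of the lectin chaperones, had 319, 649 and 536 RPKM in fresh, 142, 183 and 174 in vehicle, and 323, 331, 265 and 356 in Tubastatin A libraries. Vehicle was below both other groups, which overlapped through fresh replicate 1. Pdia3 fell by 1.53 log2 units to vehicle (SE 0.24, adjusted p = 0.00013) and rose by 0.93 with Tubastatin A (SE 0.22, adjusted p = 0.0036). Pdia4 (ERp72) had means of 163, 69.3 and 117 RPKM, with a fall by 1.22 (adjusted p = 0.00019) and a rise by 0.71 (adjusted p = 0.0066). For both genes the lower level with Tubastatin A than in fresh cells (log2 changes of -0.60 and -0.51, adjusted p = 0.034 and 0.032) turned sign when scaled by reads alone, to 0.0868 and 0.173.

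Pdia6 (P5) and P4hb (PDI itself, also a subunit of collagen prolyl hydroxylase) fell from fresh to vehicle and were not called between Tubastatin A and vehicle. Pdia6 had means of 276, 127 and 178 RPKM, with changes of -1.04 log2 units (adjusted p = 0.0037) and 0.47 (adjusted p = 0.11). P4hb had 332, 337 and 375 RPKM in fresh, 197, 225 and 219 in vehicle, and 214, 204, 180.3 and 222 in Tubastatin A libraries. The cultured groups overlapped, and their difference was -0.06 log2 units with a 95% interval from -0.34 to 0.22. Its fall from fresh, by 0.70 log2 units (adjusted p = 0.00073), and that of Pdia6 were not called when scaled by reads alone (adjusted p = 0.52 and 0.14).

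Pdia5 (PDIR) ran against the rest of its group. It had 4.96, 5.93 and 5.96 RPKM in fresh, 7.76, 9.62 and 9.35 in vehicle, and 4.94, 5.06, 4.46 and 4.99 in Tubastatin A libraries. Only the vehicle libraries were apart, and fresh and Tubastatin A overlapped. It rose by 0.58 log2 units to vehicle (SE 0.12, adjusted p = 0.0012) and fell by 0.75 with Tubastatin A (SE 0.11, adjusted p = 0.00014).

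The 2 ER oxidases, which pass electrons from the isomerases to oxygen, were higher with Tubastatin A than in either other group. Ero1l (ERO1 alpha) had 7.27, 10.96 and 11.2 RPKM in fresh, 14.7, 12.6 and 13.3 in vehicle, and 32.6, 29.9, 22.8 and 30.6 in Tubastatin A libraries. The rise with Tubastatin A over vehicle was 1.03 log2 units (SE 0.16, adjusted p = 0.00016) and over fresh 1.48 (SE 0.16, adjusted p = 6.8e-06). Its rise from fresh to vehicle, by 0.45 (adjusted p = 0.035), was not called without fresh replicate 1 (0.27, adjusted p = 0.13) or without any 1 vehicle library (adjusted p = 0.052 to 0.11). Ero1lb (ERO1 beta), at low levels of 1.40, 0.794 and 2.38 RPKM on average, rose by 0.91 log2 units over vehicle (SE 0.11, adjusted p = 1.6e-05) and by 0.49 over fresh (adjusted p = 0.0015), values that the pseudocount of 1 RPKM makes smaller: the mean was 3.00 times that of vehicle.

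Among genes of ER-associated degradation Herpud1 had the largest change of all 35 members. Herpud1 (HERP, at chr8:94386438-94395377 on the + strand) is a membrane protein that gathers the degradation complex around the ligase HRD1. It had 956, 1667 and 1356 RPKM in fresh, 48.7, 46.5 and 43.9 in vehicle, and 151, 125, 76.8 and 114 in Tubastatin A libraries. Fresh libraries were far above both cultured groups, which did not overlap each other. The fresh mean was 28.6 times the vehicle mean (log2 change -4.77, SE 0.25, adjusted p = 1.1e-08). Tubastatin A cells had 2.52 times the vehicle level (1.27, SE 0.23, adjusted p = 0.00051), and fresh cells still 11.4 times the Tubastatin A level (-3.50, SE 0.23, adjusted p = 1e-07). By level Herpud1 ranked 22nd to 45th in fresh, 1174th to 1399th in vehicle and 241st to 549th in Tubastatin A libraries.

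The core of the HRD1 complex was higher with Tubastatin A. Syvn1 (HRD1, the ubiquitin ligase) had 31.0, 31.6 and 47.9 RPKM in fresh, 11.3, 10.6 and 9.31 in vehicle, and 31.4, 29.4, 22.04 and 27.0 in Tubastatin A libraries. Sel1l (its adaptor and stabiliser) had 20.3, 15.3 and 22.6 in fresh, 15.2, 10.8 and 10.1 in vehicle, and 48.2, 41.6, 29.9 and 37.3 with Tubastatin A. Os9 (a lectin that brings substrates to SEL1L) had 90.5, 79.3 and 82.7, then 28.2, 22.7 and 21.6, then 73.9, 60.8, 47.5 and 62.5 RPKM in the same order. In each of the 3 genes every Tubastatin A library lay above every vehicle library, with rises of 1.31 (SE 0.17), 1.63 (SE 0.19) and 1.30 log2 units (SE 0.15) and adjusted p-values of 3.3e-05, 1.6e-05 and 1.5e-05. They differed in their place against fresh. Sel1l was above it (0.98, adjusted p = 0.00068), Os9 below (-0.47, adjusted p = 0.015, with the opposite sign, 0.21, when scaled by reads alone), and Syvn1 was not called (-0.39, adjusted p = 0.055). The fall of Sel1l from fresh to vehicle (-0.65, adjusted p = 0.013) was lost when scaled by reads alone (adjusted p = 0.72) and without fresh replicate 3 or vehicle replicate 3 (adjusted p = 0.056 each).

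The derlins, membrane proteins of the retrotranslocation channel, went in different directions. Derl1 had 54.0, 85.3 and 81.6 RPKM in fresh, 36.4, 39.4 and 39.8 in vehicle, and 84.3, 80.2, 66.4 and 87.8 in Tubastatin A libraries. Vehicle was apart from both other groups: Derl1 fell by 0.89 log2 units (adjusted p = 0.00062, and 0.12 when scaled by reads alone) and rose by 1.02 with Tubastatin A (SE 0.16, adjusted p = 0.00018). Derl2, at means of 7.34, 11.1 and 8.98 RPKM, rose from fresh to vehicle by 0.53 log2 units (SE 0.13, adjusted p = 0.0039), and Tubastatin A was at -0.28 from vehicle (adjusted p = 0.073). Derl3, which secretory cells express, was near the lower end of the table at 0.117 to 0.785 RPKM over all 10 libraries, and was not called. It was the 1 member that a filter on low values would have left out.

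Edem1 and Edem2 trim mannoses to mark glycoproteins for degradation, and they moved oppositely. Edem1 fell from 37.6 ± 12.1 RPKM in fresh to 16.8 ± 1.52 in vehicle (log2 change -1.08, SE 0.19, adjusted p = 0.00036) and was at 19.2 ± 2.49 with Tubastatin A, which overlapped vehicle (0.18, 95% interval from -0.22 to 0.57). Edem2 rose from 6.61 ± 0.372 to 13.0 ± 1.63 RPKM (0.87, SE 0.13, adjusted p = 9.9e-05) and was at 11.1 ± 1.42 with Tubastatin A (-0.21 from vehicle, adjusted p = 0.16). Selenos, a selenoprotein that links derlins to the p97 ATPase, fell from 112 ± 51.2 RPKM in fresh to 30.4 ± 2.26 in vehicle (-1.74, SE 0.27, adjusted p = 0.00011). Its 42.9 ± 5.00 RPKM with Tubastatin A were not called against vehicle (0.48, adjusted p = 0.12), although the libraries of both groups did not overlap. Over the 10 degradation members, 7 fell and 2 rose from fresh to vehicle, and 5 rose and 0 fell with Tubastatin A. Here too the background shares of all genes called are those given above.

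Of the sensors and transcription factors, all 3 were higher with Tubastatin A than with vehicle, and each stood differently against fresh cells. Xbp1 (chr11:5520659-5525893, + strand), the transcription factor whose mRNA IRE1 splices, had 392, 732 and 706 RPKM in fresh, 45.9, 47.6 and 49.5 in vehicle, and 163, 152, 127 and 159 in Tubastatin A libraries. The 3 groups were apart. Xbp1 fell by 3.60 log2 units to vehicle (SE 0.21, adjusted p = 3.9e-08), a fresh mean 12.8 times that of vehicle, and rose by 1.63 with Tubastatin A (SE 0.20, adjusted p = 2.7e-05). Tubastatin A cells were at -1.97 log2 units from fresh (adjusted p = 4.3e-06).

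Ern1, the sensor IRE1 alpha (chr11:106394650-106487852, - strand), had another profile. It stood at 2.27, 2.06 and 2.35 RPKM in fresh, 1.86, 1.84 and 1.95 in vehicle, and 7.48, 7.01, 6.53 and 5.82 in Tubastatin A libraries. Vehicle lay just below fresh and was not called against it (-0.16 log2 units, 95% interval from -0.42 to 0.09), and all 4 Tubastatin A libraries were well above both. The Tubastatin A mean was 3.56 times that of vehicle (1.41, SE 0.11, adjusted p = 6.6e-07) and 3.01 times that of fresh (1.25, SE 0.11, adjusted p = 1.2e-06). Among the 35 members it had the lowest adjusted p between Tubastatin A and vehicle.

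Atf6, the sensor that is cleaved in the Golgi, had 9.18, 10.3 and 17.2 RPKM in fresh, 6.23, 6.09 and 5.11 in vehicle, and 14.3, 14.8, 13.3 and 12.0 in Tubastatin A libraries. Vehicle was lowest, and the other groups overlapped. Atf6 fell by 0.91 log2 units to vehicle (SE 0.19, adjusted p = 0.0011, but 0.096 when scaled by reads alone) and rose by 1.10 with Tubastatin A (SE 0.18, adjusted p = 0.00024).

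The 2 members of the translocon, where new chains enter the ER, did not follow the chaperones. Sec61b, a subunit of the channel, had 23.0, 33.0 and 25.1 RPKM in fresh, 43.2, 55.8 and 62.9 in vehicle, and 45.2, 47.6, 52.4 and 55.4 in Tubastatin A libraries. Both cultured groups were above fresh and overlapped each other. It rose by 0.97 log2 units to vehicle (SE 0.17, adjusted p = 0.00025) and was 0.88 higher with Tubastatin A than in fresh (adjusted p = 0.00035). Ssr1, a subunit of the translocon-associated protein complex, had means of 31.5, 29.6 and 22.7 RPKM. Its fall by 0.37 log2 units with Tubastatin A (adjusted p = 0.039) was not called under several settings, with adjusted p = 0.074 when scaled by reads alone and 0.062 to 0.11 when Tubastatin A replicate 1, 3 or 4 or any vehicle library was left out.

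**Figure D4:**
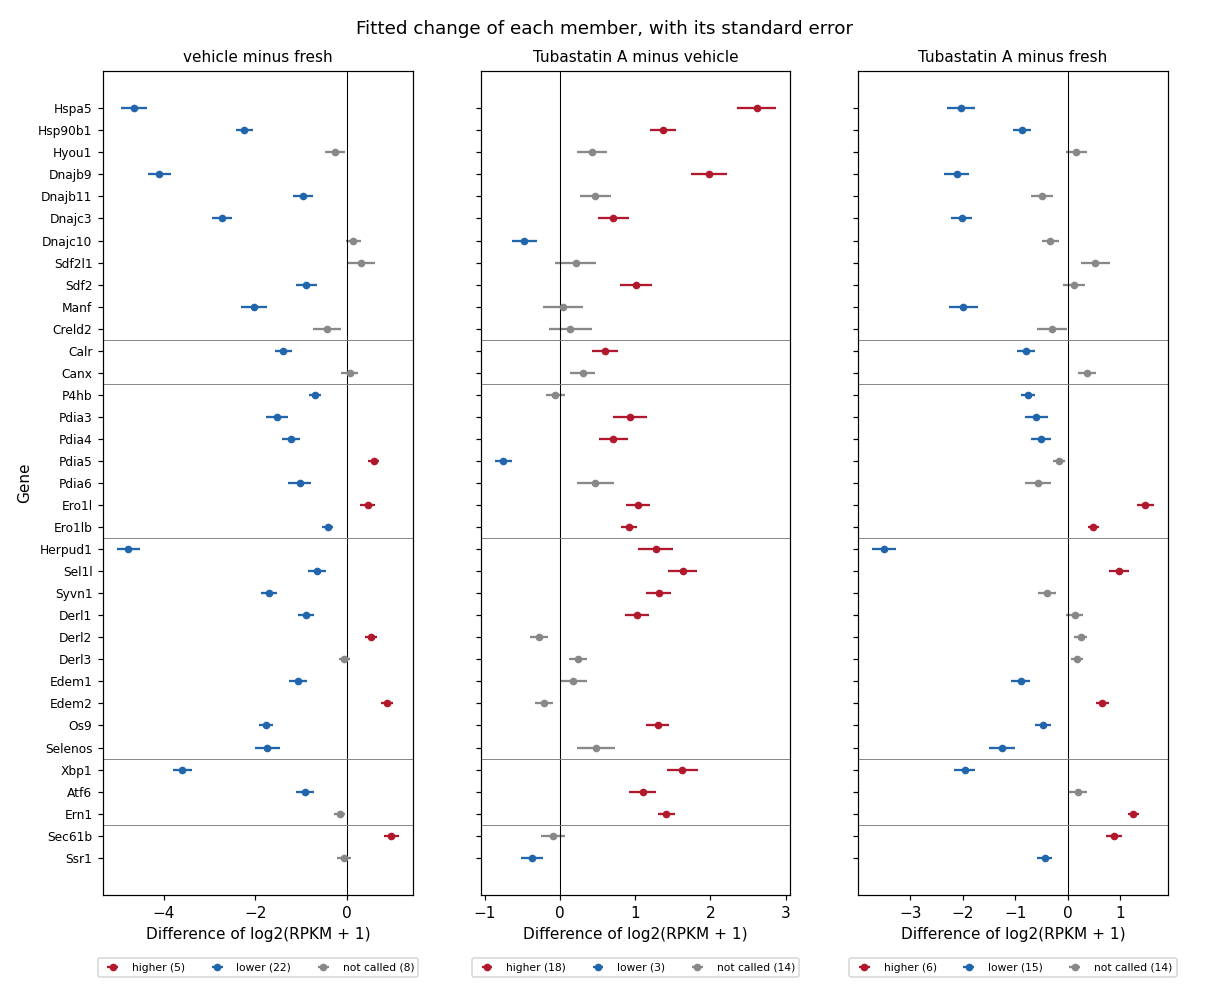
Fitted difference of log2(RPKM + 1) of each member, in a panel for each comparison, with bars for 1 standard error and members grouped by role. Red marks members called higher, blue lower and grey not called at an adjusted p under 0.05: 5, 22 and 8 in vehicle minus fresh, 18, 3 and 14 in Tubastatin A minus vehicle, and 6, 15 and 14 in Tubastatin A minus fresh.

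The scaling sorts the members into those whose call against fresh held on both scales and those whose call did not. From fresh to vehicle 14 members fell on both: Hspa5, Hsp90b1, Dnajb9, Dnajc3, Manf, Calr, Pdia3, Pdia4, Herpud1, Syvn1, Edem1, Os9, Selenos and Xbp1. The 5 that rose (Pdia5, Ero1l, Derl2, Edem2 and Sec61b) rose on both. Between Tubastatin A and fresh, Hspa5, Dnajb9, Dnajc3, Manf, Herpud1, Selenos and Xbp1 were lower on both scales, and Ero1l, Ero1lb, Sel1l, Edem2, Ern1 and Sec61b higher on both. When scaled by reads alone, Dnajc10, Sdf2l1, Canx and Ssr1 were higher in vehicle than in fresh cells as well, and Hyou1, Sdf2l1, Sdf2, Canx, Pdia5, Derl1, Derl2, Derl3 and Atf6 higher in Tubastatin A than in fresh cells. Members called on both scales were thus 7 lower with Tubastatin A than in fresh cells, Hspa5 among them, and 6 higher. The 7 of 35 lower are near the 20.2% of all genes lower when scaled by reads alone, and the 6 higher are below the 54.0% higher. For vehicle against fresh these shares were 22.7% and 49.7%. The share of all genes called on both scales was not counted.

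Other genes of the ER were counted from 6 lists, of which 119 of 121 genes were in the table. From fresh to vehicle 20 rose and 51 fell, with Tubastatin A over vehicle 51 rose and 23 fell, and between Tubastatin A and fresh 28 were higher and 42 lower. Their median changes were -0.18, 0.24 and 0.01 log2 units, smaller than those of the members. The background shares given above are to be read beside these counts and beside those of each list below. All counts of these lists are on the authors' scale and were not made for scaling by reads alone.

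Among 11 genes of the PERK branch 8 fell and 2 rose from fresh to vehicle, and 8 rose and 0 fell with Tubastatin A. Ppp1r15a, which encodes GADD34 and returns eIF2α to its unphosphorylated form, fell by 5.36 log2 units to vehicle (SE 0.19, adjusted p = 6.2e-10), from 2106 ± 384 to 49.6 ± 2.10 RPKM. It was at 221 ± 36.6 RPKM with Tubastatin A, a rise by 2.12 (SE 0.18, adjusted p = 1.2e-06). It also responds early when tissue is dissociated, and the dissociation list given above moved the same way; the part of dissociation in its level was not tested. Ddit3, which encodes the transcription factor CHOP, fell from 54.0 ± 6.44 to 7.07 ± 0.0965 RPKM (-2.76, adjusted p = 4e-09) and rose to 50.4 ± 5.88 with Tubastatin A (2.66, adjusted p = 7.2e-09), where its difference from fresh was -0.10 (adjusted p = 0.49), or 0.578 when scaled by reads alone. Chac1 and Trib3, targets of ATF4 and CHOP, rose with Tubastatin A by 1.80 (adjusted p = 1.7e-06) and 1.66 log2 units (adjusted p = 0.0001).

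Of 8 genes of the ATF6 and CREB3 branch, 6 fell and 1 rose to vehicle, and 4 rose and 0 fell with Tubastatin A. Creb3l2, a transcription factor cleaved in the Golgi like ATF6, fell from 19.5 ± 5.11 to 1.55 ± 0.314 RPKM (-2.98, adjusted p = 3e-08) and was 5.46 ± 0.279 with Tubastatin A (1.35, adjusted p = 2.1e-05). Creb3 and Atf6b rose with Tubastatin A by 1.78 and 1.17 log2 units (adjusted p = 1.6e-06 and 1.3e-05). Wfs1, an ER membrane protein whose loss causes Wolfram syndrome, rose by 1.30 (adjusted p = 6.5e-06).

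The 24 further degradation genes in the table had 11 lower and 4 higher in vehicle than in fresh, and 15 higher and 0 lower with Tubastatin A. Ufd1 and Nploc4, the cofactors with which p97 pulls substrates out of the membrane, rose with Tubastatin A by 1.90 (adjusted p = 4.3e-07) and 1.61 log2 units (adjusted p = 6.9e-06), to 74.0 ± 7.46 and 133 ± 17.0 RPKM. Both were also above fresh (1.22 and 2.17, adjusted p = 1.1e-05 and 4e-07). Herpud2, the relative of Herpud1, fell by 1.62 to vehicle (adjusted p = 2.7e-08) and rose by 1.22 with Tubastatin A (adjusted p = 3e-07).

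Of the 34 folding enzymes of the lumen, 12 were higher and 13 lower with Tubastatin A than with vehicle, shares near the 29.6% and 29.7% of all genes, and 17 were lower and 8 higher in vehicle than in fresh. Lrpap1, the chaperone of LDL receptor relatives, rose by 1.69 log2 units (adjusted p = 1.9e-06), and Erp44, which retains oxidases in the ER, by 1.21 (adjusted p = 1.4e-05). Rcn1, a calcium-binding protein, fell by 1.05 (adjusted p = 2.7e-06). Serpinh1, the collagen chaperone HSP47, fell in both comparisons, from 2017 ± 631 RPKM in fresh to 617 ± 41.3 in vehicle and 240 ± 32.8 with Tubastatin A (-1.66 and -1.37, adjusted p = 4e-05 and 0.00016).

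The 20 genes of N-glycosylation and glycan trimming had 5 higher and 2 lower in vehicle than in fresh and 4 higher and 8 lower with Tubastatin A. Mogs, glucosidase I, rose from 29.6 ± 5.13 to 99.4 ± 11.3 RPKM (1.72, adjusted p = 1.2e-06) and fell to 57.2 ± 7.03 with Tubastatin A (-0.79, adjusted p = 0.00056). Ostc and Magt1, subunits of the oligosaccharyltransferase, fell with Tubastatin A by 0.85 and 0.68 (adjusted p = 0.00035 each). Of 22 genes of the translocon, signal recognition and signal peptidase, 7 fell and 0 rose to vehicle, and 8 rose and 2 fell with Tubastatin A. The 7 that fell to vehicle and the 8 that rose with Tubastatin A are near the shares of all genes. Sec62 and Sec63, which serve chains that enter after translation, fell by 1.90 and 1.21 log2 units (adjusted p = 2.7e-07 and 1.4e-05) and rose with Tubastatin A by 1.13 and 0.87 (adjusted p = 1.9e-05 and 0.00018).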

How the data were processed

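RNA of 10 libraries was measured by polyA RNA sequencing from 5 ng of RNA (SMART-Seq v4, NuGEN Ovation Ultralow, paired reads), per the labels' protocols. Per the submitters' processing notes, the tools were edgeR, featureCounts, STAR, Subread and Trim Galore, with mm10 as the genome build; versions and use of strand are not given in the sources used here. The authors deposited 1 table of 12803 genes. Its values were taken as RPKM computed by the authors from the values themselves: multiplied by GENCODE M21 exon length and 1 factor per library, they gave whole reads within 0.05 for 12211 genes (95.4%), of 12682 with a length. Whether such a unit is a read or a read pair is not stated.

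log2(RPKM + 1) of all genes was fitted with limma 3.58.1 (R 4.3.3; variance trend, 3 groups in 1 fit), and p-values were adjusted by Benjamini-Hochberg. The fit was also run on simulated data in which few genes changed and libraries did not differ in scaling. That run therefore cannot speak to the dependence on scaling. The pseudocount of 1 RPKM understates changes of low genes. No gene was filtered; 34 of 35 members pass a mean log2(RPKM + 1) of 1. Precision is set by 3 or 4 animals a group; the depth of 37.5M to 55.3M reads put no member at the table's lowest value.

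Members and gene lists were chosen with earlier results of these data known. All 35 members are named, and of each other ER list up to 4 genes per comparison with the lowest p; a gene named in one comparison may be given in another. Alternatives were pseudocounts of 0.1 and 5, a filter on low values, scaling by reads in the table alone or by relative log expression, voom on recovered reads, fits of 2 groups, a replicate block and each library left out. Promoter sequences are RefSeq's (GRCm38.p6); Python 3.11.15 searched them. Reads of overlapping genes may not be separable.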

Additional observations from a re-analysis of the deposited data

Results flagged for a closer look

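In 79 sets of 4 Tubastatin A libraries (the members and the other ER genes named), the gap between the most extreme library and its neighbour was set beside the range of the set. It exceeded the 95% limit of 0.829 for 5 genes, where chance alone gives about 1 set in 20. Tubastatin A replicate 3 was the highest of its group for Hyou1 (7.82 RPKM, against 6.16 to 6.24 in the other 3) and the lowest for Creld2 (76.2 RPKM, against 92.5 to 94.6) and Calr (201.8 RPKM, against 238 to 239.7). Tubastatin A replicate 1 was lowest for Magt1 (9.74 RPKM), and Tubastatin A replicate 4 was highest for Sec11c (8.86 RPKM).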

How the results depend on the processing

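Using only the summed reads of the table as library size changed the largest number of member calls in both comparisons against fresh, by the shift given in the report. Between Tubastatin A and vehicle, fitting only these 2 groups changed more, with 23 members higher (18 in the fit of 3 groups) and 3 lower. From fresh to vehicle, the scaling by reads alone left 9 members higher and 14 lower (5 and 22 on the authors' scale), with a median of -0.30 log2 units. Between Tubastatin A and fresh, that scaling left 15 higher and 7 lower (6 and 15), with a median of 0.273. Single genes called on either scale that changed sign under this scaling by reads alone were Ssr1 (0.52), Atf6b (0.22), Srp14 (0.548) and Wfs1 (0.548) from fresh to vehicle, and, between Tubastatin A and fresh, Pdia3 (0.0868), Pdia4 (0.173), Pdia5 (0.401), Os9 (0.21), Ssr1 (0.224), Ddit3 (0.578), Herpud2 (0.269), Magt1 (0.0794), Ostc (0.211), Rcn1 (0.464), Sec63 (0.319) and Srpr (0.317).

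With each library left out in turn, the members' median from fresh to vehicle lay between -1.09 (without fresh replicate 1) and -0.77, and the members lower with Tubastatin A than with vehicle numbered 1 to 3. Without both fresh replicate 1 and Tubastatin A replicate 3, an alternative chosen after seeing the data, that median was -1.09. No called change of a named gene turned sign under any other setting run. With voom 18 members were lower in Tubastatin A than in fresh cells, instead of 15. The cause was not tested. Same-numbered libraries did not all deviate together (correlations from -0.168 to 0.329, against -0.476 to 0.403 for libraries with different numbers). With 3 or 4 libraries a group, these values cannot settle whether the numbers pair libraries. With a replicate block 22 members fell and 4 rose from fresh to vehicle, and 19 rose and 2 fell with Tubastatin A over vehicle. Under it 14 were lower and 6 higher with Tubastatin A than in fresh cells. Under the block Ero1l (vehicle against fresh), Ssr1 (Tubastatin A against vehicle) and Pdia4 (Tubastatin A against fresh) lost their calls and Hyou1 (Tubastatin A against vehicle) gained one.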
